A study of Arabidopsis thaliana with 12 samples.

Results

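The flower transcriptome of the accession C24 was measured on 2 ATH1 arrays, titled ExpI and ExpII, and the values below set the second array against the first. The comparison was made on all probe sets other than the AFFX controls that had a signal of at least 50 on one of the C24 arrays. Of 22746 probe sets, 12092 met this rule, and these are called members here. Each difference is log2(signal + 16) on ExpII minus log2(signal + 16) on ExpI, and a member is counted as higher or lower where the difference reached 1 in size, that is 2-fold on this scale. The pseudocount of 16 shrinks the differences of dim probe sets.

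The series holds 12 arrays of total RNA from flowers of 10 natural Arabidopsis thaliana accessions. C24 and Col-0 have 2 arrays each, whereas Cvi, Da, Laer, RLD, Rsch, Sap, Stw and Ws have 1 each. All plants were untreated wild types, raised on agar and then on soil under long days, and C24 is among the accessions that the study calls producers of saiginols, a group of acylated flavonol glycosides, and Col-0 among those it calls non-producers. The methods describe the second arrays as duplicate hybridizations and the material as coming from individual plants. Whether ExpI and ExpII of an accession are different plants, harvests or extracts of a single sample is not given in the sources used here. With 1 array against 1 there is no replicate error and no test, and the Col-0 pair, which shares no array with the C24 pair, served as the yardstick of how far a pair of arrays from the same accession can lie apart. The ecotype field of the Sap array reads RLD and that of the Stw array reads Sap-0. The titles were used, and both arrays enter below only among the 10 arrays other than C24, apart from a control reading given for Sap.

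A flower sample is a mixture of organs and of ages. Tapetum and pollen wall genes are read while anthers are young, mature pollen genes late in anther development, and cell division and histone genes in young growing buds. Nectary and scent genes mark open flowers, and senescence genes mark tissue past its peak. The array signal of a whole flower cannot tell fewer cells of a type from less RNA per cell. Of the members, 6344 have a single gene name, and these represent 6312 loci, of which 949 carry a symbol in RefSeq. Loci without a symbol are given below by their locus number and no role.

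Both C24 arrays shared the same departures from Col-0. Of the 40 probe sets that were at least 4-fold away from both Col-0 arrays on C24 ExpI, 9 were higher there and 31 lower, and all of them lay on the same side of both Col-0 arrays by at least 2-fold on C24 ExpII. The 3′ actin control probe set, which read between 1991.3 and 2363.4 on the Col-0 arrays, read 400.2 on C24 ExpI and 382.1 on C24 ExpII. Low readings were not particular to C24, as the arrays titled Cvi (308.5), Sap (312.5) and Da (327.7) had them too, while the remaining accessions reached 2396.7. The 25S rRNA control read 36.5 on C24 ExpI and 44.1 on ExpII, below the 51.3 to 94.7 of the other arrays. The median signal was 47.8 on ExpI and 48.6 on ExpII, within the 46 to 51.1 of the other arrays. The ratio of 3′ to 5′ signal of GAPDH was 0.832 and 0.943, against 0.835 to 1.07 elsewhere, and that of ubiquitin was 1.08 and 0.932, against 0.878 to 1.51.

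Many more genes differed between the C24 arrays than between the Col-0 arrays. On C24 ExpII, 628 members (5.19%) were at least 2-fold higher and 203 (1.68%) at least 2-fold lower than on ExpI. On the same probe sets the Col-0 pair had 83 higher (0.686%) and 27 lower (0.223%), and on the 11885 probe sets that met the floor in Col-0 itself 85 (0.715%) and 29 (0.244%). At 4-fold, the counts were 112 higher and 11 lower in C24, against 4 and 3 in Col-0. The SD of the differences was 0.58 in C24 and 0.34 in Col-0, and the median absolute difference was 0.31 and 0.21. The C24 differences leaned upward only in their tail, since the median member differed by −0.04. Of the 628 higher members, 304 reached the signal floor through ExpII alone, and 74 of the 203 lower members reached it through ExpI alone. Such an entry fixes the sign of a difference but not its size. With the floor set instead on the mean of the 10 other arrays, which uses neither C24 array, 398 of 11433 probe sets (3.48%) were higher and 194 (1.7%) lower in C24, against 75 (0.656%) and 25 (0.219%) in Col-0. Of the 6312 member loci, 280 (4.44%) were 2-fold higher and 94 (1.49%) lower in C24. These shares stand beside the counts given for gene lists below.

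It was ExpII, rather than ExpI, that stood apart from the other accessions. Over the 11443 probe sets with a mean signal of at least 50 on the 12 arrays, the Col-0 pair had the smallest SD of all 66 pairs of arrays. The C24 pair ranked 56, with an SD of 0.53, and the 10 pairs of C24 ExpII with another accession held ranks 57 to 66, with SDs from 0.54 to 0.64. Pairs of C24 ExpI with another accession had SDs from 0.43 to 0.49, inside the 0.36 to 0.50 of the pairs without C24 ExpII. Of the 628 higher members, ExpII exceeded every one of the 10 other arrays in 508, while ExpI lay below all of them in 120. Of the 203 lower members, ExpII lay below all the others in 160 and ExpI above all of them in 63. Among the probe sets called with the floor on the mean of the 10 others, ExpII was above all of them in 292 of the 398 higher and below all in 158 of the 194 lower, and ExpI was below all in 94 and above all in 53. Over all members, ExpII was above the range of the others in 18.4% and below it in 19.9%, against 11.5% and 8.63% for ExpI.

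**Figure D1:**
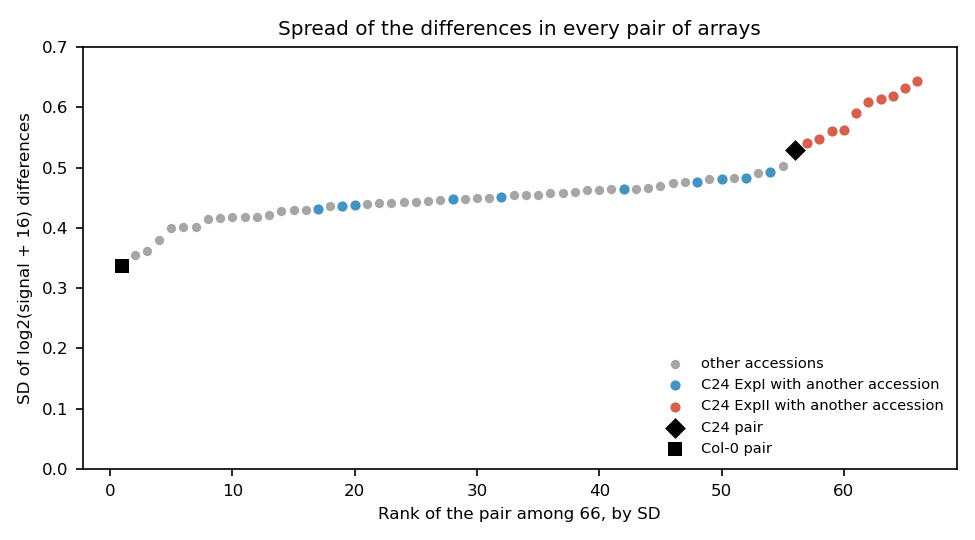
The SD of the log2(signal + 16) differences is plotted for each of the 66 pairs of arrays, ordered by SD, over 11443 probe sets. The square is the Col-0 pair, the diamond the C24 pair at rank 56, blue points are C24 ExpI and red points C24 ExpII with another accession, the latter at ranks 57 to 66.

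Among the 20 loci with the highest differences, 1 was on a gene list fixed for floral organs, stages and responses, the senescence factor WRKY6, and the others with a symbol were a chitinase, a cytochrome P450, a peroxidase and a glycosyltransferase. CHI (AT2G43570), an enzyme that cuts fungal chitin, read 16.2 on C24 ExpI and 1034.1 on ExpII, with 36.4 and 38.8 on the Col-0 arrays and at most 38.8 on any of the 10 others. Its difference of 5.03, or 32.6-fold on this scale, was the highest among named loci, and the Col-0 difference was 0.06. The cytochrome P450 gene CYP71B23 read 21.2 on ExpI and 256.6 on ExpII (difference 2.87), against 4.3 to 28.6 on the 10 others. On ExpI both genes lay within the range of the other accessions, and ExpII was far above it. Both passed the floor through ExpII alone, so the sign of their differences was fixed by the rule, though not the size.

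The 3 listed senescence genes that passed the floor were all higher on ExpII. WRKY6, a WRKY transcription factor linked to senescence and defence, read 3.9 on ExpI and 92.1 on ExpII (difference 2.44), and 3.2 to 23.0 on the 10 other arrays. WRKY53, a regulator of leaf senescence, read 21.6 and 126.9 (1.93), against 9.8 to 37.4. For both factors the Col-0 arrays lay close together, at about 20 for WRKY6 and at 29.0 and 27.5 for WRKY53. SAG29, a senescence-associated sugar transporter of the SWEET family, read 72.2 and 169.9 (1.08), inside the 61.9 to 252.2 of the others. WRKY20, the other WRKY gene that passed, read 114.1 and 75.3 (−0.51). The median of the 3 senescence genes was 1.93 in C24 and 0.01 in Col-0, beside medians over all 6312 member loci of −0.046 and −0.0019, of which 280 (4.44%) were higher in C24 and 44 (0.697%) in Col-0. WRKY6 and WRKY53 had passed the floor through ExpII alone, so the sign of their differences was fixed by the rule. With the floor on the mean of the 10 other arrays, SAG29 alone remained (1.08 in C24 and 0.22 in Col-0). Of the 22 loci of the list, 4 could be measured.

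Further named genes outside the fixed lists, picked out after their values were seen, were higher as well. The class III peroxidases Prx37 and PRX52, which act on cell wall phenolics, read 1.9 and 34.4 on ExpI and 78.3 and 200.2 on ExpII (differences 2.4 and 2.1), with highest readings elsewhere of 11.9 and 76.6. PPDK, the pyruvate, orthophosphate dikinase that serves nitrogen remobilization in ageing leaves, read 108.7 and 493.8 (2.03), against 127.2 to 342.9. GRX480, a glutaredoxin that binds TGA factors in salicylic acid signalling, read 44.0 and 184.1 (1.74), against 21.8 to 60.3. Prx37, PRX52 and GRX480 passed the floor through ExpII alone, and neither peroxidase met the floor on the mean of the 10 other arrays. All 4 genes were highest of the 12 arrays on C24 ExpII. As they were picked with their values known, this is a description only.

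Several higher genes of other functions were picked out in the same way. ALDH2C4, an aldehyde dehydrogenase that forms ferulic and sinapic acid, read 238.7 on ExpI and 642.2 on ExpII (1.37), against 141.4 to 251.1 elsewhere. CCOAMT, a caffeoyl-CoA methyltransferase, read 29.9 and 138.1 (1.75), against 14.1 to 29.7, and passed the floor through ExpII alone. The tetraspanin TET8, a membrane protein of extracellular vesicles, read 319.0 and 746.6 (1.19), against 281.3 to 474.8. The Col-0 arrays differed by 0.24 or less in each of these 3 genes. ATP sulfurylase APS4 (1.24) and the glucosinolate transporter GTR1 (1.13) were higher in C24 as well, with Col-0 differences of 0.22 and 0.17.

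Of 49 measured UDP-glycosyltransferases, which attach sugars to small molecules, 15 passed the floor. All 15 had differences above 0 in C24 and 3 reached 2-fold, beside 4.44% of all member loci that were 2-fold higher. Their median was 0.52, against 0.03 in Col-0, and for the 13 that met the floor on the 10 other arrays it was 0.51 against 0.18. UGT87A2 read 47.6 and 317.0 (2.39), against 31.7 to 149.1 on the others, UGT84A3, a sinapate glucosyltransferase, 51.3 and 124.4 (1.06), and UGT85A3 293.3 and 603.6 (1.00). As UGT87A2 passed the floor through ExpII alone, the count of 15 above 0 includes a sign that was fixed by the rule. In Col-0, UGT87A2 went from 31.7 to 78.6 (0.99), UGT84A3 from 47.7 to 101.6 (0.88) and UGT85A3 from 141.8 to 143.3 (0.01). In 7 of the 15, ExpII was above all 10 other arrays, beside 18.4% of all members. Of the 6 cytochrome P450 genes that passed, 2 were at least 2-fold higher in C24 and 2 in Col-0. For the 5 that met the floor on the 10 other arrays, the median was 0.75 in C24 and 0.61 in Col-0. The glutathione S-transferases split, with GSTU16 higher (71.5 and 184.6, difference 1.20) and GSTU20 lower (436.9 and 196.2, −1.09) among 6 that passed. These 3 families were grouped by their RefSeq symbols after the differences had been seen.

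Most of the loci with the highest differences have no symbol. AT4G01870 read 28.7 and 402.6 (3.23), AT4G16260 25.7 and 353.1 (3.15), and AT1G19020 16.4 and 209.3 (2.80), and the highest readings among the 10 other arrays were 89.0, 14.8 and 24.2. Also among the 20 highest loci, with differences of 2.44 to 2.81, were AT2G41730, AT2G18690, AT1G65490, AT1G66880, AT1G26380, AT1G26390, AT2G24160, AT1G68620 and AT1G05340. In all of these but AT1G05340, which reached 243.6 on another array, ExpII was the highest of the 12 arrays. All the loci named so far in this paragraph passed the floor through ExpII alone, which fixed the sign of their differences. AT5G35735, AT4G37290 and AT3G60420, with differences of 2.37, 2.36 and 1.73, also lay far above every other array, and AT4G37290 passed through ExpII alone. Of the 628 higher members, 348 had no single gene name, including 16 of the 20 that differed by at least 8-fold. The probe set 259925_at had the greatest difference of all members, from 31.8 to 2783.0 (5.87), while the 10 others lay between 38.6 and 249.0. Next came 262119_s_at, from 29.9 to 1871.7 (5.36), and 251625_at, from 48.3 to 2097.9 (5.04). The 10 others reached at most 234.1 and 178.1 on these. Like 259925_at, both passed the floor through ExpII alone. Genes measured only by probe sets without a single gene name are missing from every gene list here.

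**Figure D2:**
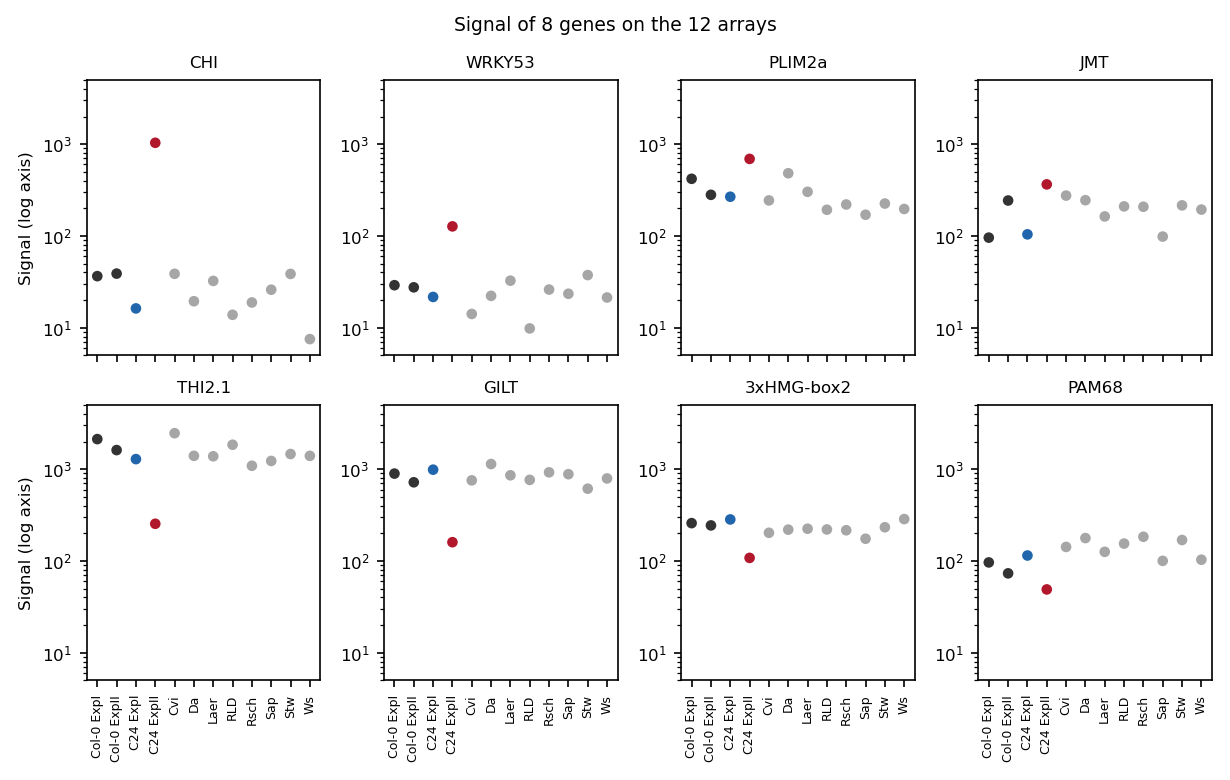
The signal of 8 genes is plotted on a log axis for each of the 12 arrays, with C24 ExpI in blue, C24 ExpII in red, the Col-0 arrays in black and the single arrays of the other accessions in grey. CHI, WRKY53 and PLIM2a were highest and THI2.1, GILT, 3xHMG-box2 and PAM68 lowest on C24 ExpII, whereas the JMT reading of C24 ExpI (103.9) was close to that of Col-0 ExpI (95.7).

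Some genes of mature pollen were higher on C24 ExpII, and 4 of the 6 that could be followed had the opposite sign in Col-0. Of 63 listed loci, 14 could be measured and 6 passed the floor, of which 2 were at least 2-fold higher and none was 2-fold lower. Over all member loci, 4.44% were 2-fold higher and 1.49% lower. PLIM2a, an actin-bundling LIM protein of pollen, read 267.1 on C24 ExpI, 690.3 on ExpII, 418.9 on Col-0 ExpI and 280.3 on Col-0 ExpII, with 170.0 to 481.4 on the 10 others (C24 difference 1.32). AT4G39110, a locus of the same list, read 57.2, 143.2, 83.7 and 54.4 on the same 4 arrays (1.12), with 32.5 to 104.1 on the others. For both genes C24 ExpII was the highest of the 12 arrays, and the Col-0 arrays differed the other way, by −0.55 and −0.50.

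AT5G45880 (difference 0.93), AGL66 (0.68), a MADS box factor of pollen maturation, and PLIM2b (0.37) were above 0 without reaching 2-fold, and none of the 3 left the range of the other arrays on ExpII. ACT11, an actin of reproductive tissues, went from 214.0 to 161.9 (−0.37). The median of the 6 was 0.80 in C24 and −0.49 in Col-0. Across the 14 measured loci the summed signal was 1561.7 on C24 ExpI and 2816.3 on ExpII, within the 1124.9 to 3139.5 of the 10 other arrays. Below the floor, ANX2, a receptor kinase of pollen tube integrity, read 10.0 and 34.4, and ACT12 read 30.5 and 29.9. The sperm histone gene MGH3 read 54.9 and 70.1, a difference of 0.28.

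Single genes of pectin, wall loosening and peptide signals were also 2-fold higher. AT59, a pollen pectate lyase named after its values were seen, read 74.5 and 256.0 (1.59), against 44.7 to 200.3 elsewhere, with a Col-0 difference of 0.03. EXPB5, a member of the beta expansins that loosen walls, read 174.7 and 388.0 (1.08), against 44.9 to 293.6, and it had the opposite sign in Col-0 (−0.49). Of 6 RALF-like peptide genes that passed, a family added after the differences were seen, RALFL25 (134.2 and 315.9, 1.14) and RALFL26 (113.8 and 279.9, 1.19) were higher, while RALFL24 and RALFL34 differed by −0.69 and −0.59. The pectin methylesterase gene PMEPCRF read 58.1 and 135.1 (1.03), and it was 1 of the 4 listed pectin genes that passed to reach 2-fold. Among all member loci, 4.44% were 2-fold higher. Of the other pectin genes, GAUT15 and ADPG1 reached the floor through ExpII alone, and all 4 were above 0 in Col-0 as well.

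Early anther genes gave no difference past 2-fold. The 7 tapetum and pollen wall genes that passed had differences from −0.69 to 0.97, and their median was 0.09 in C24 and 0.13 in Col-0. The tapetum list locus AT5G07230 went from 787.8 to 480.9 (−0.69), and EMS1, the receptor kinase that specifies the tapetum, from 113.9 to 82.1 (−0.41). AMS, a bHLH factor of the tapetum, read 177.8 and 190.0, and ATA27, a glucosidase of the tapetum, 2002.8 and 2218.4. At the other end of the list, AT1G33430 read 211.3 and 427.9 (0.97), and SHT, which makes the spermidine conjugates of the pollen coat, 665.9 and 936.7 (0.48). The pollen coat list locus AT1G75880 read 467.7 and 536.2 (0.19), below its Col-0 difference of 0.71. The summed signal of the 8 measured tapetum loci was 4233.5 and 4562.2 on the C24 arrays and 2317.0 to 4732.0 on the others.

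Of 7 carpel, ovule and fruit genes that passed, none was 2-fold different, with a median of 0.15 in C24 and −0.02 in Col-0. INO, a YABBY factor of the outer integument of the ovule, read 57.1 and 26.8 in C24 and 82.8 and 41.4 in Col-0, nearly the same difference in each (−0.77 and −0.78). ALC, a bHLH factor of fruit opening, went from 203.0 to 120.6 (−0.68) with no such step in Col-0 (0.07), and ExpII was below all 10 others (181.2 to 265.3). The embryo sac gene DD46 differed by 0.54. BPEp, a bHLH factor that limits petal cell size, went from 355.7 to 654.5 (0.85), above the highest of the other arrays (375.4), and the list locus AT5G33370 read 2474.8 and 2541.7. With WSD1, which was 2-fold lower and is described below, the 3 petal and cuticle genes that passed ranged from −1.69 to 0.85 and had a median of 0.04 in C24 and 0.50 in Col-0.

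Genes of nectaries and floral scent had differences above 0 in both accessions. All 4 that passed were above 0 in C24 and in Col-0, with medians of 0.94 and 0.73. In C24 2 reached 2-fold, beside 4.44% of all member loci that were 2-fold higher. CYP71B31, a cytochrome P450 gene of floral terpene metabolism, read 141.5 and 666.0 in C24 (2.11) and 17.8 and 103.3 in Col-0 (1.82), with up to 805.5 on another array. The list locus AT3G25810 read 220.0 and 602.0 in C24 (1.39) and 106.1 and 149.1 in Col-0 (0.44). SWEET9, the nectary sucrose exporter, read 417.7 and 592.0 in C24 (0.49) and 148.4 and 273.7 in Col-0 (0.82). BSMT1, which methylates benzoic and salicylic acid, differed by 0.44 and 0.65.

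A limited set of genes separated ExpII from ExpI in both accessions alike. Of the members, 37 were at least 2-fold higher in both pairs, which is 5.89% of the 628 in C24 and 44.6% of the 83 in Col-0. Over all members, 0.686% were higher in Col-0 and 5.19% in C24, the shares to set beside 5.89% and 44.6%. Another 5 members were lower in both, out of 203 in C24 and 27 in Col-0. Over all members, 1.68% were lower in C24 and 0.223% in Col-0. Across the 12092 members the differences of the pairs had a Pearson correlation of 0.22, given as a description since probe sets of the same arrays are not independent. JMT, which makes methyl jasmonate, read 103.9 and 364.1 in C24 (1.66) and 95.7 and 242.9 in Col-0 (1.21). BETA-VPE, a vacuolar processing enzyme, read 73.3 and 205.4 in C24 (1.31) and 68.1 and 156.9 in Col-0 (1.04). EXO, a brassinosteroid-responsive growth gene, was lower in both, from 342.7 to 155.7 in C24 (−1.06) and from 356.7 to 148.4 in Col-0 (−1.18).

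These probe sets were chosen for a lower ExpI in both pairs, so their position among the other arrays is given as a description. Set against the 8 accessions with 1 array, C24 ExpI was below the median of the 8 in 35 of the 37 probe sets and below all 8 in 22, and Col-0 ExpI in 37 and 25. C24 ExpII was above the median in 34 and above all 8 in 22, and Col-0 ExpII in 31 and 10. Further loci of the set were AT2G41380 (3.06 in C24 and 1.23 in Col-0), AT5G61820 (2.59 and 1.1), AT1G28600 (2.12 and 1.44), AT5G43450 (2 and 1.16), AT3G20340 (1.66 and 1.19), AT3G21670 (1.37 and 1.36), AT2G23840 (1.35 and 1.37), AT3G44450 (1.25 and 1.11) and AT1G57590 (1.13 and 1.97). Of 10 autophagy genes, a family added after the differences were seen, none reached 2-fold in C24 or Col-0, and the medians were 0.30 and 0.36, close to the SD of the Col-0 pair (0.34). Whether harvest time or another feature of the experiments moved with ExpI and ExpII was not tested, as the labels hold no more than the titles.

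**Figure D3:**
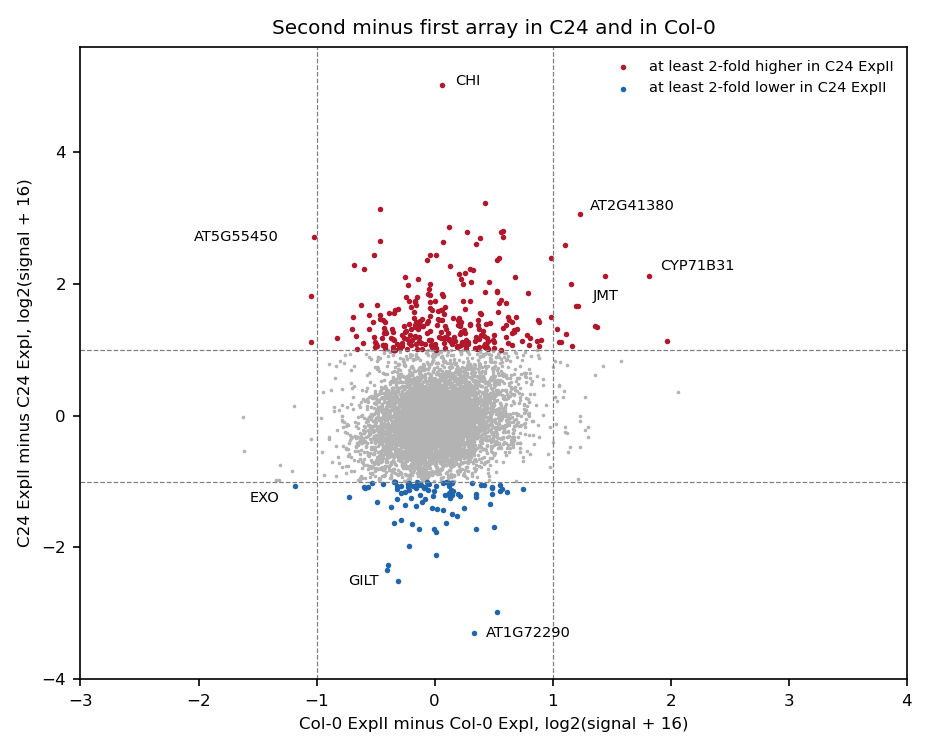
Each point is one of the 6312 member loci, with the Col-0 difference on the horizontal and the C24 difference on the vertical axis, both ExpII minus ExpI in log2(signal + 16), and dashed lines at 2-fold. The 280 loci that were higher (red) and the 94 that were lower (blue) in C24 mostly lie near 0 in Col-0, with CHI at 5.03 and 0.06, while CYP71B31, JMT and AT2G41380 lie to the right on both axes and EXO below on both.

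The genes lowest on C24 ExpII were mostly well measured on every other array. THI2.1, a thionin of flowers with antimicrobial activity, read 1287.0 on C24 ExpI and 254.0 on ExpII (−2.27), 2126.7 and 1614.7 on the Col-0 arrays and 1089.2 to 2466.7 on the 10 others. GILT (AT4G12960), named for a thiol reductase of lysosomes known in animals, read 987.5 and 160.0 (−2.51), against 612.6 to 1137.5. AT1G72290 had the greatest drop, from 890.2 to 75.8 (−3.30), against 327.4 to 801.7. In each of these genes ExpI was inside the range of the others or above it, and ExpII was well below.

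The same held for WSD1, a wax ester synthase, which read 267.9 and 72.1 (−1.69) against 184.7 to 492.3, and for the locus AT4G29030, which read 1391.2 and 340.9 (−1.98) against 1019.4 to 1714.5. SCPL43, a serine carboxypeptidase-like gene, read 259.1 and 67.8 (−1.71), but its range elsewhere was wide, 24.4 to 463.3. The other loci among the 20 lowest, with differences from −2.98 to −1.41, were AT1G30795, AT4G15750, AT3G26140, AT1G62500, AT3G23770, AT4G29020, AT4G12890, AT5G47350, AT2G41990, AT5G43020, AT3G46770, AT2G41650, AT5G49180 and AT5G60140. Of the short defence peptides, THI2.2 went from 69.3 to 27.2 (−0.98) in C24 and from 41.4 to 7.0 (−1.32) in Col-0. The defensin-like gene LCR69, named after its values were seen, went from 3199.7 to 1483.8 (−1.1), against 1987.0 to 3071.3. Of the 21 loci on the list of pathogen defence genes, 5 had a singly named probe set, and 2 of these passed, both thionins. Neither was higher, while PDF1.2 read 8.0 and 0.7. The rest of that list could not be followed by name, so it does not show whether pathogen defence genes rose or fell on ExpII. The leading higher genes named above, CHI among them, were not on that list.

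Of the histone genes that passed 3 of 4 were at least 2-fold lower on ExpII, and of the cell division genes 1 of 4. All 4 H2B histone genes that passed were below 0 and 3 were at least 2-fold lower, with a median of −1.05 in C24 and −0.06 in Col-0, beside 1.49% of all member loci that were 2-fold lower in C24 and 0.19% in Col-0. HTB2 read 214.3 and 83.9 (−1.20), against 201.9 to 712.9 on the others, and HTB4 586.7 and 320.0 (−0.84), against 492.2 to 685.4. HTB11 (250.8 and 110.1, −1.08) and HTB1 (678.1 and 328.2, −1.01) were lower too but stayed inside the range of the 10 others on ExpII, which for HTB11 reached down to 13.7. The summed signal of the 5 measured histone loci was 1773.6 and 865.9 on the C24 arrays, 2021.5 and 1952.5 on the Col-0 arrays and 1288.7 to 2150.1 on all others. Near-identical H2B copies may share probe signal.

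The 4 division genes that passed were below 0 in C24 and in Col-0, TOPII alone by 2-fold in C24. In each of them ExpII was below all 10 others, beside 19.9% of all members. TOPII, topoisomerase II, read 119.2 and 49.9 (−1.04), against 77.2 to 152.6 elsewhere. TOPII passed the floor through ExpI alone, so the sign of its difference was fixed by the rule. The Aurora kinases AUR2 and AUR1 differed by −0.80 and −0.32, and PRL, an MCM helicase subunit of DNA replication, by −0.77. The median of the 4 was −0.78, against −0.16 in Col-0, and the sum over the 6 measured loci was 662.7 on ExpI and 401.2 on ExpII, with 546.5 to 735.9 on the others. With the floor on the mean of the 10 other arrays, the median of 5 division genes was −0.77 in C24 and −0.09 in Col-0. 3xHMG-box2, a chromosomal protein of mitotic cells that was named after its values were seen, read 283.2 and 107.9 (−1.27), against 174.5 to 285.8. Of the meristem and young bud genes, YAB3 differed by −0.40 and PHV by 0.13.

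Genes that build photosystems and chlorophyll were mostly below 0, by less than 2-fold in all but 1. Of 15 biogenesis genes, grouped by symbol after the differences were seen, 14 were below 0 in C24. On ExpII 9 lay below all 10 other arrays, beside 19.9% of all members. The median was −0.64, against −0.26 in Col-0, where 12 of the 15 were below 0. C24 ExpI was above all 10 others in 3 of them, and the sum over the 19 measured genes was 4827.3 on C24 ExpI and 2890.8 on ExpII, against 3325.6 to 4101.6 elsewhere. PAM68, a factor of photosystem II assembly, read 114.6 and 48.9 (−1.01), against 73.2 to 183.3 on the others. It was the 1 gene at 2-fold, beside 1.49% of all member loci that were 2-fold lower. PAM68 passed the floor through ExpI alone, so the sign of its difference was fixed by the rule. PORB, a protochlorophyllide oxidoreductase, read 1692.9 and 867.5 (−0.95), where ExpI was above and ExpII inside the range of 761.9 to 1253.0. CHLM, a methyltransferase of chlorophyll synthesis, read 714.1 and 437.6 (−0.69), against 499.7 to 742.3.

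Of 11 photosynthesis genes none was 2-fold different, and the median was −0.14 in C24 and −0.12 in Col-0. The antenna gene LHCB4.1 read 2496.0 and 1989.0 (−0.33), and LHCB4.3, a stress-linked form, 673.8 and 1028.3 (0.60). The 54 genes of the plastid genome that passed had a median of −0.14 in C24 and 0.09 in Col-0, and only rpoA, a subunit of the plastid RNA polymerase, reached 2-fold, from 615.9 to 270.4 (−1.14). Of 11 genes for RNA polymerase II and Sm-like subunits 10 were below 0, with a median of −0.36 against 0.04 and none at 2-fold.

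The vacuolar processing enzymes, proteases that mature vacuolar proteins, split by form. GAMMA-VPE, the form of ageing and stressed vegetative tissue, read 697.7 and 1587.9 (1.17) against 623.0 to 1560.4, and BETA-VPE was higher as given above. DELTA-VPE, the form of the young seed coat, read 63.3 and 20.4 (−1.12), below the 40.2 to 107.7 of the others. DELTA-VPE passed the floor through ExpI alone, so the sign of its difference was fixed by the rule. Among the 12 SWEET sugar transporters that passed, SWEET4 read 366.5 and 1035.4 (1.46), inside the 439.8 to 1251.5 of the others where ExpI was below them. The remaining SWEET genes apart from SAG29 differed by less than 2-fold, and the family median was 0.24 in C24 and 0.43 in Col-0. Of 14 serine carboxypeptidase-like genes that passed, scpl38 (52.6 and 170.0, 1.44) was 2-fold higher and SCPL43 2-fold lower, with a median of −0.18 in C24 and −0.13 in Col-0. Beside the counts of these families, 4.44% of all member loci were 2-fold higher and 1.49% lower in C24. These families too were added after the differences were seen.

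**Figure D4:**
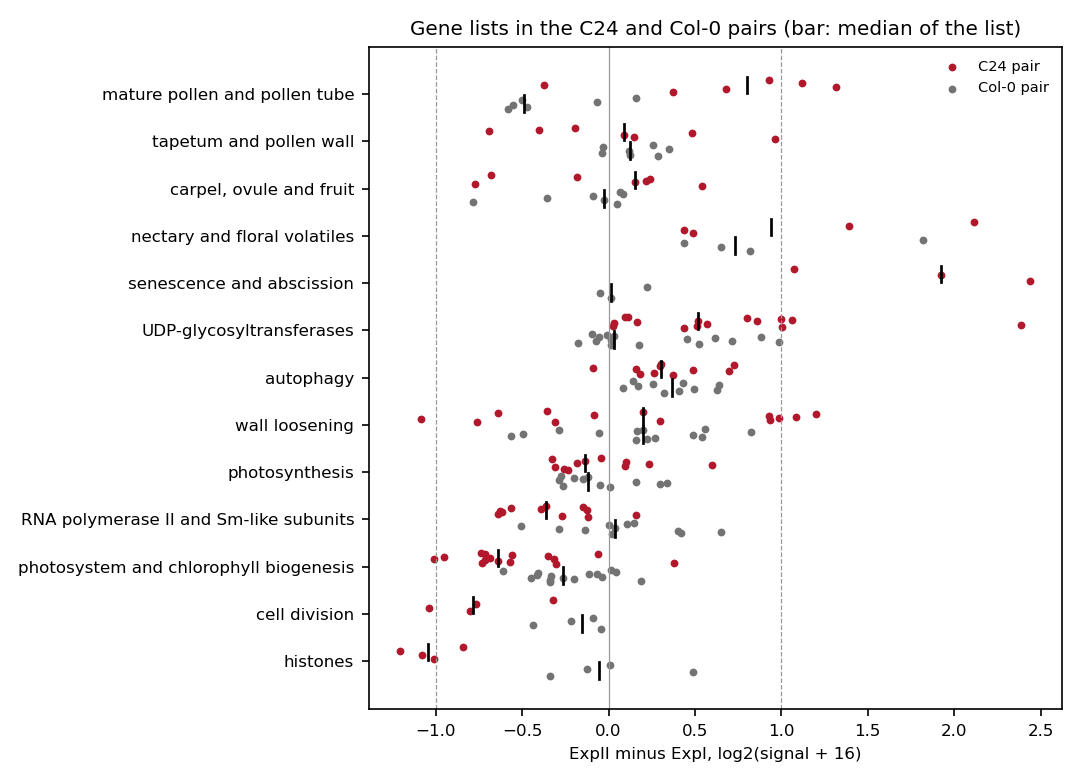
Differences ExpII minus ExpI in log2(signal + 16) are plotted for each gene of 13 lists that passed the floor, in red for the C24 pair and in grey for the Col-0 pair, with a bar at each list's median and dashed lines at 2-fold. Histone (median −1.05) and cell division genes (−0.78) lie left of 0 and senescence (1.93), nectary (0.94) and pollen genes (0.80) right of 0 in C24, and in Col-0 the pollen median is −0.49. Of the senescence genes, WRKY6 and WRKY53 passed the floor through C24 ExpII alone, and only SAG29 (1.08) met it on the mean of the 10 other arrays. Of the cell division genes, TOPII passed the floor through C24 ExpI alone.

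Wall loosening genes moved in both directions. Of 13 that passed, XTH19 (39.0 and 110.6, 1.20) and EXPB5 were 2-fold higher and XTH16 (248.9 and 109.1, −1.08) was 2-fold lower, and the median was 0.20 in both accessions. Among all member loci, 4.44% were 2-fold higher and 1.49% lower in C24. XTH19 passed the floor through ExpII alone, so the sign of its difference was fixed by the rule. The expansin-like gene EXLA1 differed by 0.98. STZ, a zinc finger factor of the cold and touch lists, read 56.7 and 162.9 (1.3), where another array read 162.8. Among other cold genes, COR47 read 1063.9 and 2117.0 (0.98), above the 949.3 to 1786.2 of the others, COR15A 589.5 and 976.6 (0.71) and COR15B 478.3 and 352.5 (−0.42), so that closely related cold genes had opposite signs. The touch list held STZ and EXO, with opposite signs, and the cold list had a median of 0.85 in C24 and −0.19 in Col-0. The clock gene GI read 199.1 and 249.1 (0.30), against a Col-0 difference of −0.54, and ADPG1, a polygalacturonase of anther opening, 44.5 and 59.7 (0.32).

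In the flavonol pathway that the study concerns, none of the 3 listed genes that passed reached 2-fold. The serine carboxypeptidase-like gene FPT2 (AT2G22960), the acyltransferase of saiginol formation in the study, read 213.2 and 304.2 in C24 (0.48) and 27.8 and 34.8 in Col-0 (0.21). UGT78D2, a flavonoid glucosyltransferase, read 122.3 and 133.4 (0.11), and AT1G06000 236.2 and 236.6. UGT78D1, a flavonol rhamnosyltransferase, stayed under the floor on both C24 arrays, at 36.9 and 8.8, and both were below the 75.7 to 216.4 of the other 10.

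The lists of floral organ identity (9 loci), jasmonate and late stamen (30 loci) and cytosolic ribosomal proteins (49 loci), and the mitochondrial genome, had no locus with a singly named probe set, and those of meiosis, seed and embryo, heat, and low oxygen had none above the floor. Nothing can be said of these genes here. At the floor itself, AT4G17000 (50.0 and 23.0), AT5G02720 (48.3 and 50.0) and AT5G14150 (40.7 and 50.0) were just inside, and AT5G17610 (49.9 and 36.7), AT5G49560 (49.9 and 39.0) and AT3G48970 (40 and 49.9) just outside.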

How the data were processed

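The authors deposited one linear signal intensity per probe set and array, from biotin-labelled total RNA on Affymetrix ATH1 arrays. The intensity values come scaled to a mean of about 100 on each array after the highest and lowest 2% of values are left out (100.007 to 100.008 here). The summarization software is not given in the sources used here, and no detection calls were used. A single array per group limits the precision.

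Values were used as deposited, with log2(signal + 16), a floor of 50 and a call at 2-fold (pandas 2.3.3, numpy 2.4.6). Of 22810 probe sets, 13513 list 1 gene and 503 several, and 13436 matched a RefSeq locus (TAIR10.1 names). A locus with several probe sets was represented by the one with the highest mean signal, and 144 loci had more than 1. The members and the 27 gene lists were chosen with earlier results of these data known, and 14 further families after the differences were seen. List entries were matched by locus, and 8 were dropped because RefSeq gives the symbol to another locus.

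Genes were named by rule: the 20 highest and 20 lowest loci, the 4 largest differences per list (all where fewer than 5 passed), the 10 strongest in both accessions, the 10 farthest from the other arrays, the 3 on each side of the floor, and those known from earlier results. Genes from the added families and other symbols were picked after their values were seen. The calling step was tested on simulated data. Alternatives were other pseudocounts, scalings, floors, probe set classes and folds.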

Additional observations from a re-analysis of the deposited data

Results flagged for a closer look

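In 3 loci the C24 and Col-0 pairs differed by at least 2-fold in opposite directions, and none of these contrasts could be tested with 1 array each. AT5G55450 was higher by 2.71 on C24 ExpII (193.7 and 1359.4) and differed by −1.02 in Col-0 (551.4 and 263.9). AT2G25510 differed by 1.81 in C24 (557.9 and 1998.9) and −1.05 in Col-0 (2385.5 and 1146.7), and ACA.l (AT1G13210) by 1.12 and −1.05.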

How the results depend on the processing

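Quantile normalization and median centring moved no count, list median or named gene by more than the SD of the Col-0 pair (0.34) or 1.5 times for a count, and no 2-fold difference of a named gene changed sign under the pseudocounts and scalings. The number of higher members, 628, was 831 with a pseudocount of 1, 292 with 64, 398 with the floor on the mean of the 10 other arrays, 193 at 3-fold, 1444 at 1.5-fold and 324 where both C24 arrays had to reach 50, the last an alternative added after the data were seen. The number of lower members, 203, was 387, 62, 194, 27, 1286 and 129 under the same changes. The share of higher among called members was 75.6% and lay between 67.2% and 82.5% across the pseudocounts, scalings and floors. The senescence list's median of 1.93 was 2.50 with a pseudocount of 1, 1.16 with 64 and 1.5 without a floor, and without a floor the pollen median became 0.44 and the petal and cuticle median −0.41, as dimmer genes came in. Medians of lists with fewer than 3 genes above the floor were not recomputed, and under the stricter floors some medians could not be formed. Among 115 named genes, 35 moved by more than 0.34 with a pseudocount of 1 and 52 with 64. No paired analysis was possible because the comparison is 1 array against 1 and comes from no test.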
